A study of Mus musculus with 4 samples.

Results

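The c-Jun N-terminal kinases (JNKs), the scaffold proteins that hold them, the kinases that activate them and a pair of related p38 kinases were followed in mouse embryonic stem cells (ESCs) with and without REST, a transcriptional repressor of neuronal genes. The members were the 10 rows of the gene count table whose symbols were Mapk8, Mapk9, Mapk10, Mapk8ip1, Mapk8ip2, Mapk8ip3, Map2k4, Map2k7, Mapk11 and Mapk14, out of 26301 rows with a gene identifier. They were picked by symbol, with earlier results of these data known, and all 10 passed the filter on low counts. RNA sequencing had been done on 2 biological replicates of the N6 line (WT) and 2 of the N8 line (Rest-/-). Culture medium held serum and leukemia inhibitory factor. Both lines had been kept on feeder fibroblasts, which were then diluted out by passages on gelatin. Each genotype was a single line, so an effect of genotype and a difference between lines cannot be told apart.

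The JNKs are mitogen-activated protein kinases (MAPKs) that respond to stress and to developmental signals. A MAP3K activates a MAP2K, which phosphorylates the JNK on its activation loop, and the JNK in turn phosphorylates c-Jun and other substrates. The JNK-interacting proteins bind members of each tier at once, and they also attach to kinesin and ride along axons, for which they are best known in neurons. The p38 kinases form a sister branch that shares upstream kinases with JNK.

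The 4 libraries held between 22293966 and 30953863 counts assigned to genes. A gene was read as detected above 3 counts, which corresponded to 0.0969 to 0.135 CPM (counts per 1000000 counts of a library, after scaling). Rest itself, the targeted gene, had 7908 and 6233 counts in the WT libraries against 4244 and 3890 in the Rest-/- libraries, so both Rest-/- libraries lay below both WT libraries but reads from the gene were still counted. In edgeR's quasi-likelihood test its log2 fold change was -0.52 with a standard error of 0.13 (adjusted p = 0.526), and which exons those reads came from cannot be seen in counts per gene. Of 10 ESC markers, 8 were in the table and all 8 had more than 3 counts in every library, with a summed level of 3646 and 3807 CPM in WT and 3077 and 3217 CPM in Rest-/-. Of 10 fibroblast markers, 8 had more than 3 counts in each library and Lum was at 0 in all 4, and their summed level was 122 CPM in Rest-/- replicate 1 against 20.8 to 35.0 CPM in the other 3 libraries. For neurons, 8 of 10 markers were in the table, and their summed level was 329 and 432 CPM in WT and 419 and 498 CPM in Rest-/-. Stmn2 alone held 124 and 193 CPM of this in WT and 120 and 159 CPM in Rest-/-. Of the 7 neuron markers tested, 4 were higher in both Rest-/- libraries and 0 lower, beside 16.5% and 15.4% of all genes tested. Their median log2 fold change was 0.35. Astrocyte markers summed to 7.67 to 10.9 CPM, with 2 of 5 above 3 counts in each library.

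The question put to the 10 genes was which of them differed between Rest-/- and WT ESCs. Mapk8ip2, Mapk8ip1 and Mapk11 were higher in both Rest-/- libraries than in both WT libraries, with fitted folds of 3.29, 1.77 and 2.06. Map2k4 and Map2k7 were lower in both Rest-/- libraries, with folds of 0.916 and 0.897, and the groups overlapped for the other 5 genes. Across all 15444 genes tested, 16.5% were higher in both Rest-/- libraries and 15.4% were lower in both, so 3 and 2 of 10 genes are counts to be read against those shares. No member passed an adjusted p of 0.05 in edgeR's quasi-likelihood test with genotype as the single term, adjusted over all genes tested, in which 0.0518% of genes were called higher and 0.00648% lower. At an unadjusted p under 0.05, 2 of the 10 were higher, Mapk8ip2 and Mapk11, and 0 were lower, beside 3.85% and 2.86% of all genes tested. The median log2 fold change of the 10 was 0.02, against -0.0047 for all genes tested. In bulk RNA, fewer cells expressing a gene and less RNA per cell cannot be told apart.

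**Figure D1:**
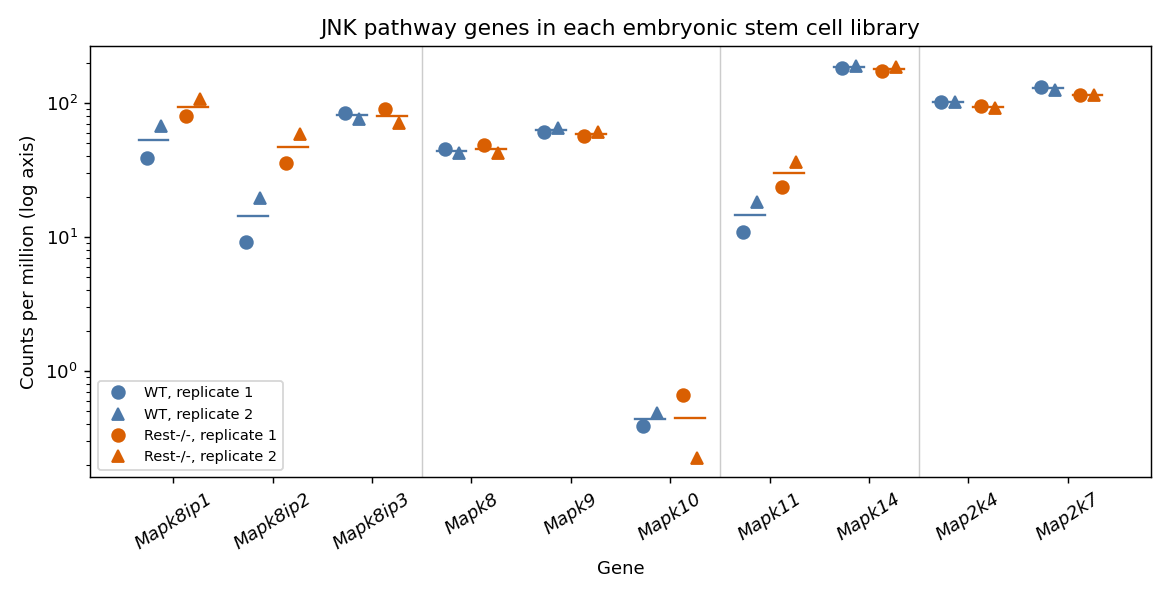
Level of each of the 10 genes in CPM, on a log axis, in the 4 libraries, with circles for replicate 1, triangles for replicate 2, blue for WT, orange for Rest-/- and a bar at each group's mean of 2. The orange points lie above both blue ones for Mapk8ip1, Mapk8ip2 and Mapk11, and Mapk10 lies far below the rest, between 0.226 and 0.658 CPM.

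Of the 3 scaffold genes, Mapk8ip2, which encodes JIP2, a JNK scaffold known mainly from brain, differed most between the genotypes. The gene (identifier 60597) lies on the plus strand of mm9 at chr15:89284344-89294899. It had 284 counts in WT replicate 1, 525 in WT replicate 2, 917 in Rest-/- replicate 1 and 1311 in Rest-/- replicate 2. In CPM this was 14.4 ± 7.37 in WT and 47.3 ± 16.8 in Rest-/- (SD, n = 2 each). Both Rest-/- libraries lay above both WT libraries, although in each genotype the library numbered 2 held more than the library numbered 1. The log2 fold change was 1.72 with a standard error of 0.47 and a 95% interval of 0.47 to 2.97. Its adjusted p was 0.604 in edgeR's quasi-likelihood test, and 1.31% of all genes tested had a larger log2 fold change. Between the libraries that share a replicate number, the differences of log2(CPM + 0.5) were 1.90 and 1.57.

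Whether Mapk8ip2 was called depended on the test. The paper used edgeR with tag-wise and with common dispersion for its p-values, without naming the test. Mapk8ip2 passed the threshold in edgeR's exact test with tag-wise dispersion (adjusted p = 0.00623), which called 1.16% of all genes higher. The exact test with a common dispersion gave an adjusted p of 0.00273 (1.59% of genes called higher), and DESeq2 gave 0.0193 (1.17% called higher). In each of those 3 tests Mapk8ip2 was the single member called, out of 10. In the quasi-likelihood test it was also called without WT replicate 2, where its log2 fold change was 2.37 (adjusted p = 0.0252). Without each of the other libraries in turn the adjusted p lay above the threshold, and over all 4 omissions the log2 fold change ran from 1.27 to 2.37. Each of these fits assumes that the lone library left in a genotype varies as the other genotype does. Without Rest-/- replicate 1, the library in which fibroblast markers were high, it was 2.05 (adjusted p = 0.0828). The summed level of the neuron markers was lowest in WT replicate 1 and highest in Rest-/- replicate 2, as were Mapk8ip2, Mapk8ip1 and Mapk11, and its part in these results was not tested.

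The genotypes overlapped for the genes tested on either side of Mapk8ip2. Chkb, which encodes a choline kinase and overlaps Cpt1b in the annotation, is the nearest gene tested on the lower-coordinate side, and had 31 and 30 counts in WT against 36 and 22 in Rest-/-. Arsa, the lysosomal arylsulfatase A, is the nearest on the other side, 8008 bp away, and had 548 and 666 counts in WT against 586 and 528 in Rest-/-. Their log2 fold changes were 0.17 (95% interval -0.86 to 1.21) and 0.13 (-0.50 to 0.76).

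REST binds an element called RE1, made of a left arm and a right arm, so the sequence around the start sites of the 10 genes was searched for those letters on both strands of mm9. The arms were spelled CAGCACC and GGACAG and could lie 2 to 10 bases apart, a range chosen after the data had been seen. Within 1 kb of a start site, 172 of 14192 tested genes with a position (1.21%) held such a pair. Among the 10 genes Mapk8ip2 held one, centred 416 bp upstream of its start site, on the plus strand at chr15:89283919-89283938, with 7 bases between the arms. It is printed, 5′ to 3′ from mm9, because it lies beside the member that differed most. Its arms are in capitals and 40 bases stand on each side.
Mapk8ip2: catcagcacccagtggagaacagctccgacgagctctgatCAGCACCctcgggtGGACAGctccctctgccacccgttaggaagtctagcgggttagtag
Within 20 kb of a start site, 8.39% of genes held a pair and Mapk8ip2 was again the single member. The planned spelling of RE1 was CAGCACC, then 2 bases of any kind, then GGNCAG. Under it Mapk8ip2 had no match within 1 kb, also with 1 mismatch allowed. Its nearest match with 1 mismatch lay 4578 bp upstream. A match of letters describes the sequence and does not show that REST was bound there.

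Mapk8ip1 encodes JIP1, which carries JNK together with its upstream kinases and links them to kinesin-1. The gene (identifier 19099) lies on the minus strand at chr2:92223833-92241420. It had 1199 and 1797 counts in WT replicates 1 and 2 against 2062 and 2372 in Rest-/- replicates 1 and 2. This was 52.9 ± 20.1 CPM in WT and 93.4 ± 19.3 CPM in Rest-/- (SD, n = 2 each). Both Rest-/- libraries lay above both WT libraries, but the closest pair, WT replicate 2 at 67.1 CPM and Rest-/- replicate 1 at 79.8 CPM, lay nearer to each other than the libraries within either genotype. The log2 fold change was 0.82 (standard error 0.33, 95% interval -0.04 to 1.68), with an adjusted p of 0.777 in edgeR's quasi-likelihood test. It was not called in either exact test or in DESeq2, where adjusted p-values ran from 0.456 to 0.655. Leaving out 1 library at a time moved its log2 fold change between 0.47, without WT replicate 1, and 1.27, without WT replicate 2. Of the 50-base windows of its transcripts, 1.48% are shared with 1700029I15Rik, which overlaps the end of the gene on the opposite strand.

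Mapk8ip3 encodes JIP3, a scaffold that joins JNK to kinesin and dynein during axonal transport. The gene (identifier 30957) lies on the minus strand at chr17:25029098-25073922. It had 2635 and 2056 counts in WT against 2342 and 1565 in Rest-/-, or 80.9 ± 5.91 and 80.6 ± 14.1 CPM (SD, n = 2 each). The genotypes overlapped, with 1 Rest-/- library the highest of the 4 and the other the lowest. Its log2 fold change was -0.01 (95% interval -0.49 to 0.48, adjusted p = 1.00 in edgeR's quasi-likelihood test), and the sign changed when library sizes alone were used for scaling. Of its 50-base windows 27.8% are shared with transcripts of Eme2, Mrps34 or Nme3, so its counts are uncertain.

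The make-up of the scaffold group differed between the genotypes when CPM was divided by the kilobases of exon of each gene. JIP2 transcripts, from Mapk8ip2, made up 10.2% and 14.8% of the 3 scaffold genes in the WT libraries against 21.0% and 27.1% in the Rest-/- libraries. The mean share was 12.5 ± 3.30% in WT and 24.1 ± 4.32% in Rest-/- (SD, n = 2 each), a difference of 11.5 percentage points. The share of Mapk8ip3 was 37.0% and 22.8% in WT against 21.0% and 12.7% in Rest-/-. The groups did not overlap, but the closest pair (22.8% and 21.0%) lay nearer to each other than the libraries within either genotype. The mean difference of -13.1 percentage points became -5.93 without WT replicate 1 and -20.2 without WT replicate 2. Per kilobase of exon Mapk8ip1 was the largest of the 3 in every library, at 52.8% and 62.4% in WT and 58.0% and 60.2% in Rest-/-. Its share overlapped between the genotypes. Its rank depended on the length used. Per kilobase of longest transcript, WT replicate 1 held 46.99% Mapk8ip1 and 46.45% Mapk8ip3. By plain counts Mapk8ip3 was the largest in that library (63.99% against 29.12% for Mapk8ip1), in WT replicate 2 and in Rest-/- replicate 1. In Rest-/- replicate 2 Mapk8ip1 was the largest by plain counts too. The summed level of the 3 genes was 15.8 and 23.2 CPM per kilobase in WT and 29.6 and 38.3 in Rest-/-. The shares are given as a description with no test, and with 2 libraries against 2 an exact two-sided permutation test could not have gone below p = 0.333.

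**Figure D2:**
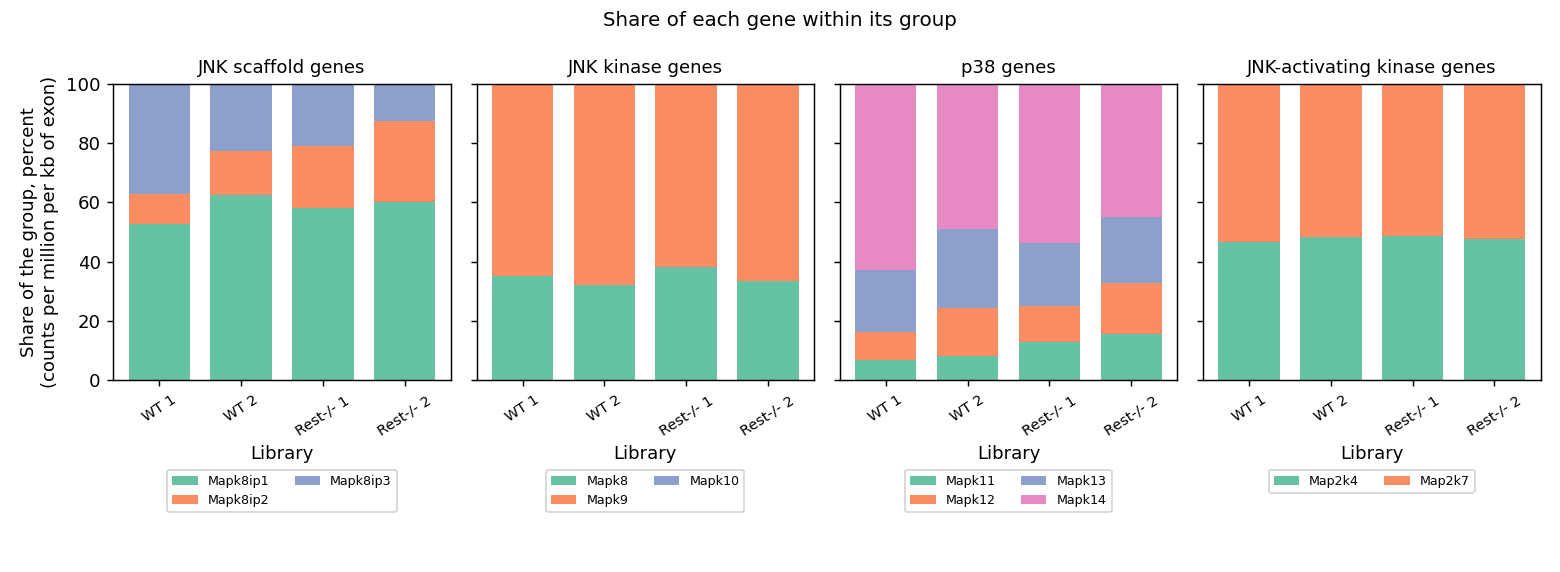
Share of each gene within 4 groups of related genes, in percent of the group's summed CPM per kilobase of exon, in the 4 libraries. Among the scaffolds the Mapk8ip2 share is 10.2% and 14.8% in WT and 21.0% and 27.1% in Rest-/-, and among the p38 genes the Mapk11 share is 6.74% and 8.30% in WT and 13.0% and 15.6% in Rest-/-.

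For all 3 JNK kinase genes the genotypes overlapped. Mapk8, which encodes JNK1, a widely expressed JNK, lies on the minus strand at chr14:34191084-34260344 (identifier 26419). It had 1403 and 1130 counts in WT against 1254 and 932 in Rest-/-, which was 43.8 ± 2.21 and 45.3 ± 4.57 CPM (SD, n = 2 each). The log2 fold change was 0.05 with a 95% interval of -0.38 to 0.48. Mapk9, which encodes the widely expressed JNK2, lies on the plus strand at chr11:49660253-49699923 (identifier 26420). Its counts were 1881 and 1739 in WT against 1477 and 1347 in Rest-/-, or 62.8 ± 2.95 and 59.0 ± 2.58 CPM. The overlap was narrow, and the log2 fold change was -0.09 (95% interval -0.46 to 0.28). For both genes the adjusted p in edgeR's quasi-likelihood test was 1.00, and the intervals leave room for folds of 0.770 to 1.39 for Mapk8 and 0.725 to 1.22 for Mapk9.

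Mapk10, which encodes JNK3, the JNK of neurons, was scarce in both genotypes. The gene (identifier 26414) lies on the minus strand at chr5:103336967-103640353. It had 12 and 13 counts in the WT libraries against 17 and 5 in the Rest-/- libraries, or 0.388, 0.485, 0.658 and 0.226 CPM in that order. The genotypes overlapped, the Rest-/- libraries being the highest and the lowest of the 4. Its log2 fold change was 0.04, with a standard error of 0.64 and a 95% interval of -1.67 to 1.75, so at this depth a fold from 0.315 to 3.36 could not be told from none. The sign changed without WT replicate 1 and without Rest-/- replicate 1.

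Per kilobase of exon, JNK2 was the most abundant of the 3 JNK transcripts in every library. Mapk9 made up 64.5% and 67.5% of the group in WT and 61.4% and 66.3% in Rest-/-. Mapk8 made up 35.3% and 32.2% in WT and 38.2% and 33.6% in Rest-/-. The share of Mapk10 was 0.250% and 0.307% in WT and 0.430% and 0.150% in Rest-/-. Shares of all 3 genes overlapped between the genotypes, and their summed level lay between 13.5 and 14.2 CPM per kilobase in all 4 libraries.

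Under the planned spelling of RE1, with CAGCACC, then 2 bases of any kind, then GGNCAG, Mapk10 was the member with a full match near a start site. Of the 14192 tested genes, 126 (0.888%) matched all 12 fixed positions within 1 kb of a start site, and 5.34% did within 20 kb. Mapk10 was the single member in both windows. Its match is centred 266 bp upstream, on the plus strand at chr5:103640612-103640626. It is shown, 5′ to 3′ from mm9, because it stands beside the member with the fewest counts, with the 12 matching bases in capitals.
Mapk10: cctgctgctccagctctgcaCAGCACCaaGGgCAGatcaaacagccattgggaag
With 1 mismatch allowed, 4 members held a match within 1 kb, beside 8.56% of all tested genes, and 7 held one within 20 kb, beside 50.9%. The 4 were Mapk10, Map2k4 (139 bp upstream, CAGCACtgaGGgCAG), Mapk11 (649 bp upstream) and Mapk8ip1 (692 bp downstream of its start site, in an intron, CAGCtCCctGGtCAG). Of these, Mapk11 and Mapk8ip1 had both Rest-/- libraries above both WT libraries, Map2k4 had both below, and Mapk10 overlapped.

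Mapk11 encodes p38 beta, and was the p38 gene with the largest fitted difference. The gene (identifier 19094) lies on the minus strand at chr15:88972916-88980036, on the chromosome that also holds Mapk8ip2, 304307 bp away. It had 339 and 486 counts in WT replicates 1 and 2 against 611 and 805 in Rest-/- replicates 1 and 2. In CPM this was 14.5 ± 5.09 in WT and 30.0 ± 8.98 in Rest-/- (SD, n = 2 each), and both Rest-/- libraries lay above both WT libraries. The log2 fold change was 1.04 (standard error 0.36, 95% interval 0.08 to 2.01). Its adjusted p was 0.727 in edgeR's quasi-likelihood test (unadjusted p = 0.0391 from the same fit), and 0.393, 0.265 and 0.371 in the tag-wise exact test, the common-dispersion exact test and DESeq2. Leaving out 1 library at a time gave log2 fold changes from 0.70, without Rest-/- replicate 2, to 1.45, without WT replicate 2, and none of these fits called it. Without Rest-/- replicate 1 it was 1.33.

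A second spelling of RE1, chosen after the data had been seen, was CAGNACC, then 2 bases of any kind, then GGACAG. It shares with the planned spelling every sequence made of CAGCACC and GGACAG. Of the tested genes, 103 of 14192 (0.726%) matched all 12 of its fixed positions within 1 kb, and the single member among them was Mapk11, centred 649 bp upstream on the plus strand at chr15:88980678-88980692. The same bases matched the planned spelling at 11 positions, with 1 mismatch. The base that differed there is the one that the second spelling leaves free, so the choice of spelling fixed this full match. The site is printed from mm9 with the matching bases in capitals, so that it can be set beside the Mapk8ip2 sequence.
Mapk11: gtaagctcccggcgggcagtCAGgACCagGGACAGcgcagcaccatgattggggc
With 1 mismatch, 2 members matched within 1 kb, beside 6.18% of all tested genes.

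Mapk12, the p38 gamma gene, which lies 1782 bp from Mapk11 on the same strand, had 376 and 732 counts in WT against 432 and 684 in Rest-/-. The genotypes overlapped, and its log2 fold change was 0.27 (95% interval -1.09 to 1.63), an interval that also holds the value of Mapk11. Mapk14, which encodes p38 alpha, the main p38 of most cells, lies on the plus strand at chr17:28828287-28885349 (identifier 26416). It had 5629 and 5113 counts in WT against 4488 and 4127 in Rest-/-, or 186 ± 6.41 and 180 ± 8.92 CPM (SD, n = 2 each). The genotypes overlapped and the log2 fold change was -0.05 (95% interval -0.38 to 0.28, adjusted p = 1.00 in edgeR's quasi-likelihood test). Per kilobase of exon Mapk14 was the most abundant of the 4 p38 genes in each library, with 62.7% and 48.9% in WT and 53.6% and 44.8% in Rest-/-. The share of Mapk11 was 6.74% and 8.30% in WT and 13.0% and 15.6% in Rest-/-, a mean difference of 6.80 percentage points with no overlap.

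Map2k4 and Map2k7 encode MKK4 and MKK7, the kinases that phosphorylate JNK. Map2k4, which can also act on p38, lies on the minus strand at chr11:65501745-65601799 (identifier 26398). It had 3134 and 2749 counts in WT against 2460 and 2026 in Rest-/-, or 102 ± 0.992 and 93.3 ± 2.65 CPM (SD, n = 2 each). Both Rest-/- libraries lay below both WT libraries, but the log2 fold change was -0.13 with a standard error of 0.13 and a 95% interval of -0.47 to 0.21. Map2k7, which acts on JNK, lies on the plus strand at chr8:4238740-4251423 (identifier 26400). Its counts were 4102 and 3363 in WT against 2992 and 2560 in Rest-/-, or 129 ± 4.91 and 116 ± 0.164 CPM. It too was lower in both Rest-/- libraries, with a log2 fold change of -0.16 (standard error 0.13, 95% interval -0.49 to 0.18). Neither passed the threshold in edgeR's quasi-likelihood test, with an adjusted p of 1.00 for each. The 760 genes tested on chromosome 8 showed a median of -0.14 on the log2 fold change scale, and the 1193 on chromosome 11, where Map2k4 lies, of -0.02. On chromosome 15, which holds Mapk8ip2 and Mapk11, the median was 0.04, and on chromosome 2, which holds Mapk8ip1, it was 0.0011. The part of a chromosome's median in a member's value was not tested. Of the 50-base windows of Map2k7, 14.9% are shared with transcripts of Gm14378, so its counts are uncertain. The share of Map2k4 in the pair overlapped between the genotypes, at 46.7% and 48.4% in WT and 48.6% and 47.6% in Rest-/-, per kilobase of exon.

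**Figure D3:**
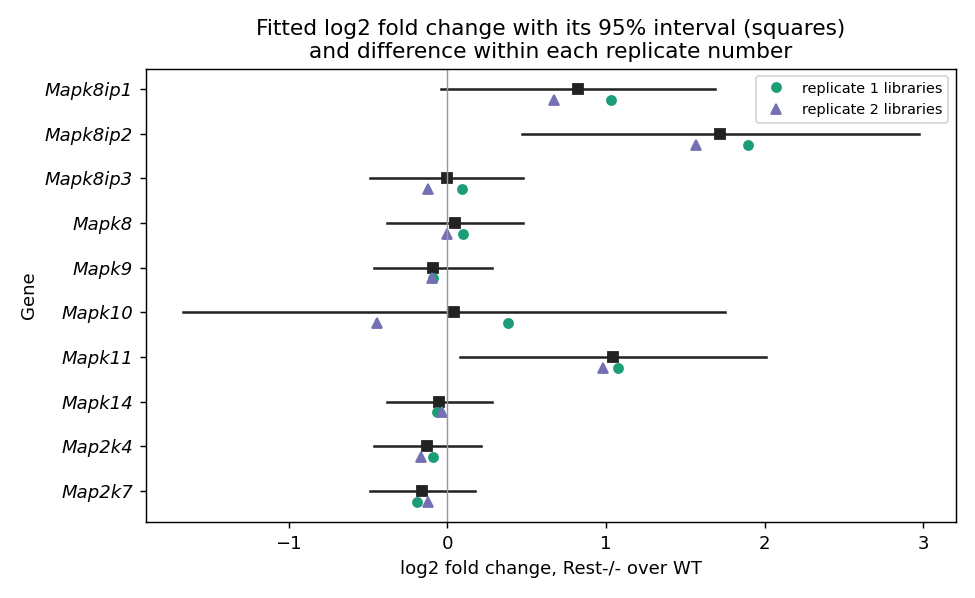
Fitted log2 fold change (Rest-/- over WT) of each of the 10 genes, with squares for the estimate, lines for its 95% interval, and circles and triangles for the difference of log2(CPM + 0.5) between the replicate 1 libraries and between the replicate 2 libraries. The intervals of Mapk8ip2 (0.47 to 2.97) and Mapk11 (0.08 to 2.01) lie above 0 before adjustment, and that of Mapk10 is the widest.

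Set in order of their WT level per kilobase of exon, Mapk14 stood first at 42.7 ± 1.47 CPM per kilobase (SD, n = 2). Map2k7 followed at 24.1 ± 0.916 and Map2k4 at 21.9 ± 0.213. Mapk8ip1 (11.4 ± 4.32) and Mapk9 (9.26 ± 0.434) came next and were closer to each other than the spread of Mapk8ip1. Mapk11 (5.96 ± 2.09), Mapk8ip3 (5.56 ± 0.406) and Mapk8 (4.73 ± 0.239) followed, and the gaps from Mapk11 to the other two were within its own spread, while both libraries of Mapk8ip3 lay above both of Mapk8. Mapk8ip2 (2.52 ± 1.29) and Mapk10 (0.0391 ± 0.0062) were lowest. In Rest-/- ESCs Mapk8ip1 stood at 20.1 ± 4.15, within its spread of Map2k7 (21.6 ± 0.0307) and Map2k4 (20.01 ± 0.568). Mapk8ip2, at 8.31 ± 2.94, lay within its spread of Mapk9 (8.70 ± 0.380), and Mapk11 stood at 12.3 ± 3.68. These orders depend on the length used. All exons together cover 14.5 kb for Mapk8ip3, 9.255 kb for Mapk8 and 6.78 kb for Mapk9. Their longest transcripts are 7.28, 5.76 and 4.68 kb. For Mapk11 both lengths are 2.44 kb, and for Mapk8ip2 they are 5.70 and 5.56 kb. With the longest transcript, Mapk8ip3, Mapk8 and Mapk9 would rise relative to Mapk11 and Mapk8ip2, so their places are uncertain.

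**Figure D4:**
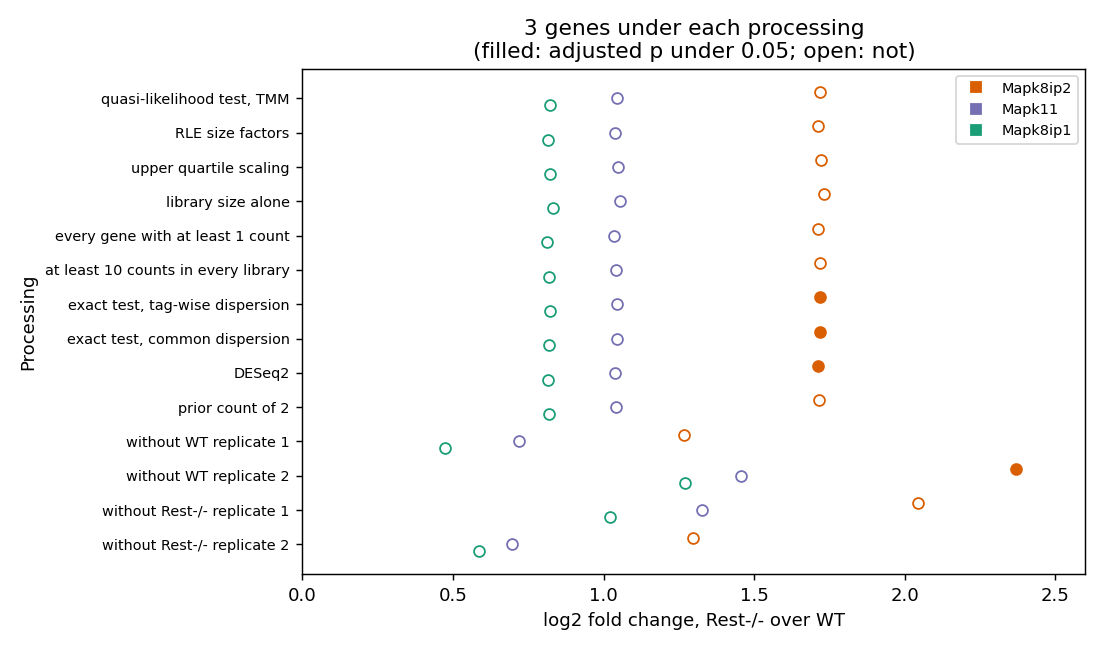
Log2 fold change (Rest-/- over WT) of Mapk8ip2, Mapk11 and Mapk8ip1 under different scalings, count filters and tests and with each library left out, filled where the adjusted p was under 0.05. Mapk8ip2 stays between 1.27 and 2.37 and is filled in both exact tests, in DESeq2 and without WT replicate 2, while the other genes are open in every fit drawn. The fit with a replicate block, which called all 3 genes and is given in the closing section, is not drawn.

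The other genes of the pathway were read from 8 lists holding 83 genes, of which 79 were tested. No gene of any list passed an adjusted p of 0.05 in edgeR's quasi-likelihood test. At an unadjusted p under 0.05, 4 were higher and 3 lower, near the 3.85% and 2.86% of all genes tested. The exact test with tag-wise dispersion and DESeq2 called 0 of them, where they called 1.16% and 1.17% of all genes higher, and the exact test with a common dispersion called 1, Dusp2, where it called 1.59% of all genes higher. Both Rest-/- libraries lay above both WT libraries for 13 of the 79 (16.5%) and below for 13 (16.5%), close to the 16.5% and 15.4% of all genes tested. The median log2 fold change was 0.04.

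Upstream of the MAP2Ks, 23 MAP3K and MAP4K genes had log2 fold changes from -0.57 to 0.35, with a median of -0.01. Of the 23, 1 was higher and 5 were lower in both Rest-/- libraries, beside 16.5% and 15.4% of all genes tested. Map3k12, which encodes the dual leucine zipper kinase known from injured axons, was the one higher (980 and 845 counts in WT, 987 and 815 in Rest-/-, log2 fold change 0.25). Of the 5 lower genes, Map3k5, the ASK1 gene, at -0.57 (527 and 527 counts in WT, 301 and 290 in Rest-/-) and Map4k1 at -0.50 (1561 and 1239 counts in WT, 940 and 706 in Rest-/-) were the farthest from 0. Among 9 other genes of the p38 branch, 0 were higher and 2 lower in both Rest-/- libraries, beside the same shares of all genes. The 2 were Rps6ka5 (-0.32) and Mapkapk3 (-0.12), both kinases downstream of p38. Of 4 other scaffold genes, Spag9, the JIP4 gene, had a log2 fold change of 0.30 with 2511 and 2065 counts in WT against 2633 and 2047 in Rest-/-. Wdr62, a JNK scaffold known from brain growth, had -0.30 with 2540 and 2211 against 1639 and 1556.

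Among 9 phosphatase genes the values ran from -0.58 to 1.86 with a median of -0.01. Dusp2, which encodes a nuclear MAPK phosphatase, had 38 and 22 counts in WT against 101 and 79 in Rest-/-, and its log2 fold change of 1.86 ± 0.37 (standard error) was the highest of all 79 genes, with an adjusted p of 0.381 in edgeR's quasi-likelihood test. Dusp10 stood at 0.57 and Dusp19 at -0.29, each without overlap between the genotypes. Of 11 genes for the transcription factors that JNK and p38 act on, 4 were higher in both Rest-/- libraries and 1 was lower, beside 16.5% and 15.4% of all genes tested, and the median was 0.39, beside -0.0047 for all genes. Atf3, a stress-induced factor, had 128 and 187 counts in WT against 287 and 326 in Rest-/- (log2 fold change 1.22), and Fosb had 35 and 23 against 56 and 31 (0.84). Elk1, a factor that MAPKs phosphorylate, had 1860 and 1851 counts in WT against 987 and 1094 in Rest-/- (-0.56).

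Of 11 genes for the kinesin motors and cargoes that JNK scaffolds bind, 2 were higher in both Rest-/- libraries and 0 were lower, near the 16.5% of all genes tested that were higher, and the median was 0.19, beside -0.0047 for all genes. Kif5a, the neuronal heavy chain of kinesin-1, had 836 and 471 counts in WT against 1229 and 739 in Rest-/-, and a log2 fold change of 0.86 ± 0.31 (standard error), with an adjusted p of 0.732 in edgeR's quasi-likelihood test. Klc4, a kinesin light chain, stood at 0.07. Of 5 neuronal substrates of JNK, 2 were tested, and Mapt, the tau gene, had 1127 and 964 counts in WT against 705 and 543 in Rest-/- (log2 fold change -0.48). Of 10 ERK and other MAPK genes, 3 were higher and 2 lower in both Rest-/- libraries, beside 16.5% and 15.4% of all genes tested, with Mapk6 at 0.21 and Mapk7 at 0.20 on one side and Map2k2 at -0.12 on the other.

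**Figure D5:**
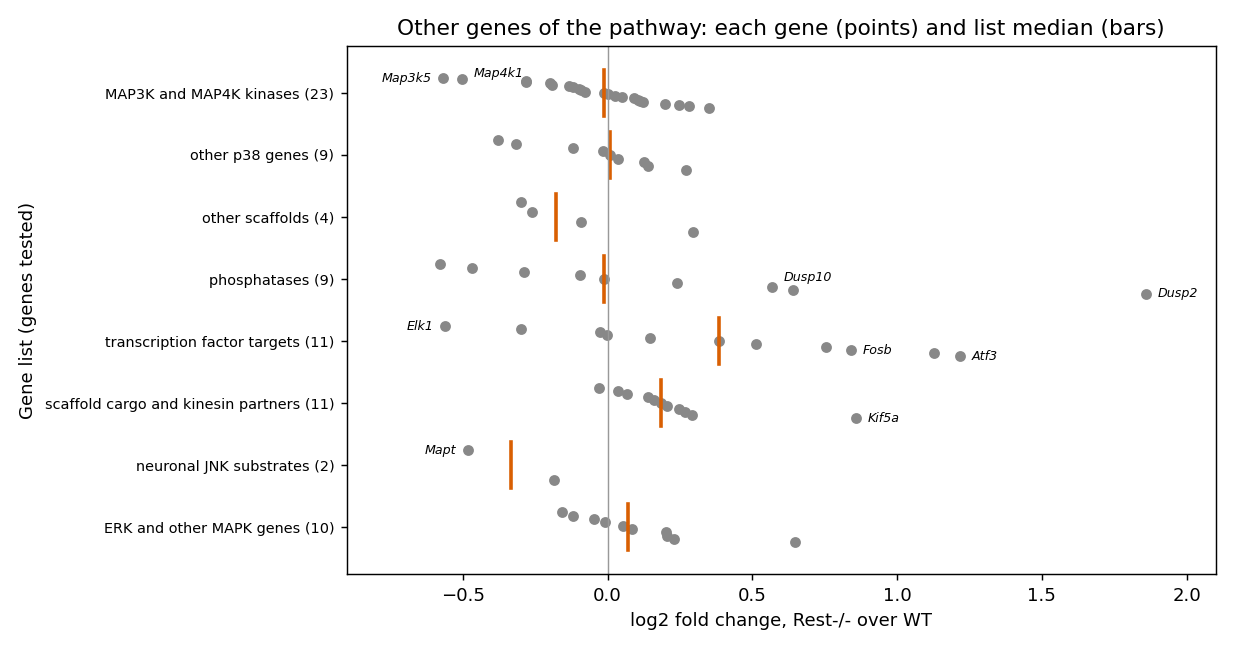
Log2 fold change (Rest-/- over WT) of the 79 tested genes of 8 pathway lists, 1 point per gene, with an orange bar at each list's median and the number tested in brackets. No point passed the adjusted threshold, and Dusp2, at 1.86, lies farthest from 0.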

How the data were processed

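RNA was sequenced from 2 WT and 2 Rest-/- mouse ESC cultures. The authors aligned reads with Subread and deposited raw counts per gene from featureCounts on mm9, and neither versions nor the strand setting are given in the sources used here. Rows with no gene identifier (368) were left out. Counts were fitted in edgeR 4.0.16 (quasi-likelihood test, TMM scaling, filterByExpr, genotype as the single term, Benjamini-Hochberg over 15444 genes). CPM used the same scaling. Positions and exon lengths came from GENCODE M1 on mm9, and 21926 rows matched 1 gene. Exact tests, DESeq2 1.42.0, other scalings, filters and omitted libraries were tried as alternatives. All 10 members were named. From each pathway list were named the 2 highest and 2 lowest genes whose libraries did not overlap and that averaged 1 CPM or more in one genotype, and the nearest tested genes beside Mapk8ip2. One gene that this rule names is not reported here. The members and lists were chosen with earlier results of these data known. The scripts were tested on simulated data.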

Additional observations from a re-analysis of the deposited data

How the results depend on the processing

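Depth limited Mapk10, with 5 to 17 counts a library, and p-values measure the spread between cultures of 1 line each. The count of all genes called higher and lower was 8 and 1, and became 49 and 4 with every gene of at least 1 count, 3 and 0 with at least 10 counts in every library (which dropped Mapk10), 179 and 54 in the tag-wise exact test, 246 and 97 in the common-dispersion exact test, and 180 and 58 in DESeq2. Leaving out 1 library gave 54 to 88 higher and 6 to 25 lower. Members called higher went from 0 to 1 (Mapk8ip2) in both exact tests and DESeq2, and lay between 0 and 1 with 1 library left out; pathway genes called higher went from 0 to 1 in the common-dispersion test. The sign reversed for Mapk8ip3 by library size alone (0.0097) and, with 1 library left out, for Mapk8 (-0.052 to 0.14), Mapk10 (-0.93 to 0.59), Mapk8ip3 (-0.19 to 0.16) and Mapk14 (-0.11 to 0.0038). The cause was not tested. Members with an RE1 match within 1 kb went from 1 to 4 with a mismatch, and to 2 with a mismatch in the second spelling, chosen after seeing the data. The difference in the Mapk8ip2 share ran from 8.49 to 14.6 percentage points with 1 library left out, an alternative also added after seeing the data.

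Libraries with the same replicate number deviated together (r = 0.81 over genes), but the labels tie them by number alone. With a replicate block, 1308 genes were called higher and 1313 lower, 3 members higher (Mapk8ip2, Mapk11 and Mapk8ip1, adjusted p = 4.61e-05, 0.000423 and 0.000682 in edgeR's quasi-likelihood test), and 11 pathway genes higher and 8 lower.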
